A study of Mus musculus with 15 samples.

Results

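The genes described here are 37 members of the ATF4 response and of serine and one-carbon metabolism, taken as a named list of stress transcription factors, amino acid enzymes, amino acid transporters and tRNA synthetases. The list was applied by gene symbol to the 35880 symbols of the deposited table. It found 36 members by the exact symbol and *Wars* under its current name *Wars1*, a RefSeq synonym. All 37 are among the 14652 genes that passed the filter on low values, a sum of at least 3 CPM over all samples, where CPM are the reads of a gene scaled to a fixed total per sample.

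LL2 cells, derived from the Lewis lung carcinoma of the mouse, carried a luciferase reporter. RNA sequencing covered 5 lines in 3 replicates each, 15 samples in all: the parental line (LL2 WT), 3 clones that lack KEAP1 (*KEAP1* KO #1, #2 and #3, also called clones #1, #2 and #3) and 1 clone that lacks NRF2 (*NRF2* KO). Each knockout line was grown from 1 sorted cell after a plasmid with Cas9, GFP and a guide RNA for *Keap1* or *Nfe2l2* had been delivered by nucleofection, whereas LL2 WT is the uncloned parent. All lines were grown in complete medium with serum, and each KO is compared with LL2 WT to ask what NRF2 activation or NRF2 loss does to the genes of the cancer cell. The effect of a knockout and the selection of a clone cannot be told apart within 1 clone, and the *NRF2* KO rests on 1 clone.

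ATF4 is the transcription factor of the integrated stress response. Kinases that sense amino acid shortage, unfolded protein or other stress phosphorylate the translation factor eIF2, which lowers protein synthesis and favors translation of the *Atf4* mRNA, and ATF4 then raises genes for amino acid synthesis, amino acid uptake and tRNA charging. Serine made from glycolytic 3-phosphoglycerate is split to glycine and passes its carbon to folate for nucleotide synthesis. KEAP1 marks NRF2 for degradation, and in some lung cancers active NRF2 is known to raise serine synthesis through ATF4.

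*Keap1* averaged 23.0 ± 1.03 CPM (SD, n = 3) in parental cells and 22.7 ± 1.78 CPM in the *NRF2* KO, against 11.8 ± 0.889, 5.53 ± 1.57 and 5.58 ± 1.59 CPM in *KEAP1* KO #1, #2 and #3. Its Log2FC in *KEAP1* KO #1 (log2 fold change against LL2 WT) was −0.95, the smallest of the 3 clones. *Nfe2l2*, which encodes NRF2, averaged 186 ± 19.6 CPM in LL2 WT and lay between 96.4 and 123 CPM in the KO lines, *NRF2* KO included at 119 ± 24.0 CPM, so its RNA level does not single out the *NRF2* KO. The NRF2 target *Nqo1* averaged 30.3 ± 5.48 CPM in LL2 WT, 276 to 488 CPM in the *KEAP1* KO clones and 9.82 ± 1.21 CPM in *NRF2* KO. Summed keratin, E-cadherin and *Epcam* RNA ranged from 299 to 667 CPM over the samples, almost all of it *Krt8* and *Krt18*. *Epcam* and *Cdh1* each averaged below 0.05 CPM in every line, so 2 of the 5 defining epithelial markers are near absence. The 3 mesenchymal markers summed to 1548 to 2157 CPM in the 9 *KEAP1* KO samples and to 3242 to 5801 CPM in the 6 samples of LL2 WT and *NRF2* KO, without overlap. *Vim* averaged 4289 CPM in LL2 WT, 1681 to 1853 CPM in the clones and 3566 CPM in *NRF2* KO, and *Fn1* 236, 19.9 to 92.1 and 164 CPM, while *Cdh2* averaged 6.73 CPM in LL2 WT, 0.351 CPM in clone #2 and 10.4 to 11.7 CPM in the other KO lines. Immune markers summed to 0.103 to 0.396 CPM in clones #2 and #3 and to 0.523 to 2.70 CPM elsewhere, and endothelial and fibroblast markers to 2.48 to 7.49 and 2.39 to 19.8 CPM. The mitochondrially encoded genes took 4.31% to 5.07% of the CPM in *KEAP1* KO #2 and #3 and 2.46% to 3.54% in the other 9 samples, and the part of this difference in the results for those clones was not tested. The members together took 0.353% to 0.592% of a sample's CPM. No read totals are in the table, so the depth of each sample is unknown. P-values measure the spread between replicates within a line and not the spread between clones.

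Of the 37 members, 10 fell and 1 rose in *KEAP1* KO #2, 7 fell and 2 rose in *KEAP1* KO #3, and 0 fell and 1 rose in *KEAP1* KO #1, each against the same LL2 WT samples. Those that fell were enzymes for asparagine, proline, cysteine, alanine and phosphoenolpyruvate, 2 transcription factors and a secreted hormone, while those that rose were the factor *Atf3* and the glycine transporter *Slc6a9*. In *NRF2* KO limma called no member, and 3 had an unadjusted p under 0.05, beside 11.2% of all genes. A change counts as called, and is described as a rise or fall, at a Benjamini-Hochberg adjusted p under 0.05 from limma over all genes tested together with an absolute Log2FC over 1, on log2(CPM + 0.1). By this rule 8.54%, 13.7% and 13.4% of all genes were called in the 3 clones in order, and 0.464% for *NRF2* KO. The share called lower was 3.99%, 7.75% and 7.34% of all genes in the 3 clones, and the share called higher was 4.55%, 5.94% and 6.09%.

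The median Log2FC of the members was −0.23, −0.35 and −0.40 in clones #1, #2 and #3, beside medians over all genes of 0.11, 0.03 and 0.02. In each clone 26 of the 37 members lay below 0. In *NRF2* KO the median was 0.13, with 24 members above 0, beside 0.04 over all genes. At an adjusted p under 0.05 with no limit on size, 3 members were higher and 4 lower in *KEAP1* KO #1, 2 and 12 in *KEAP1* KO #2, 3 and 8 in *KEAP1* KO #3, and 0 and 1 in *NRF2* KO. The shares of all genes on the higher side were 15.9%, 17.3%, 16.6% and 0.13%, and on the lower side 7.25%, 14.6%, 14.8% and 0.491%. All samples of a clone lay below every LL2 WT sample for 5, 13 and 10 members in clones #1, #2 and #3 (12.4%, 18.6% and 18% of all genes) and above for 3, 5 and 6 members (24.6%, 23.4% and 22%). For *NRF2* KO this was so for 1 member below and 0 above (4.53% and 8.68% of all genes). No member was called in all 3 clones, which 2.86% of all genes were on the higher side and 2.63% on the lower side. *Asns* and *Aldh18a1* had an adjusted p under 0.05 on the lower side in all 3 clones (4.76% of all genes) and *Cebpb* on the higher side (8.72%). For *Asns* and *Aldh18a1* in clone #1 the adjusted p reached 0.16 and 0.141 under an alternative, and for *Cebpb* in clones #2 and #3 it reached 0.125 and 0.0905. The number of calls turned on single libraries, and the share of all genes called was not taken for these alternatives. Without LL2 WT replicate 2 the count of members called rose to 5 in *KEAP1* KO #1, without LL2 WT replicate 1 it fell to 6 in *KEAP1* KO #2 and to 5 in *KEAP1* KO #3, without *KEAP1* KO #2 replicate 1 or replicate 2 it fell to 5 in that clone, and without *KEAP1* KO #3 replicate 1 it fell to 4 in that clone.

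**Figure D1:**
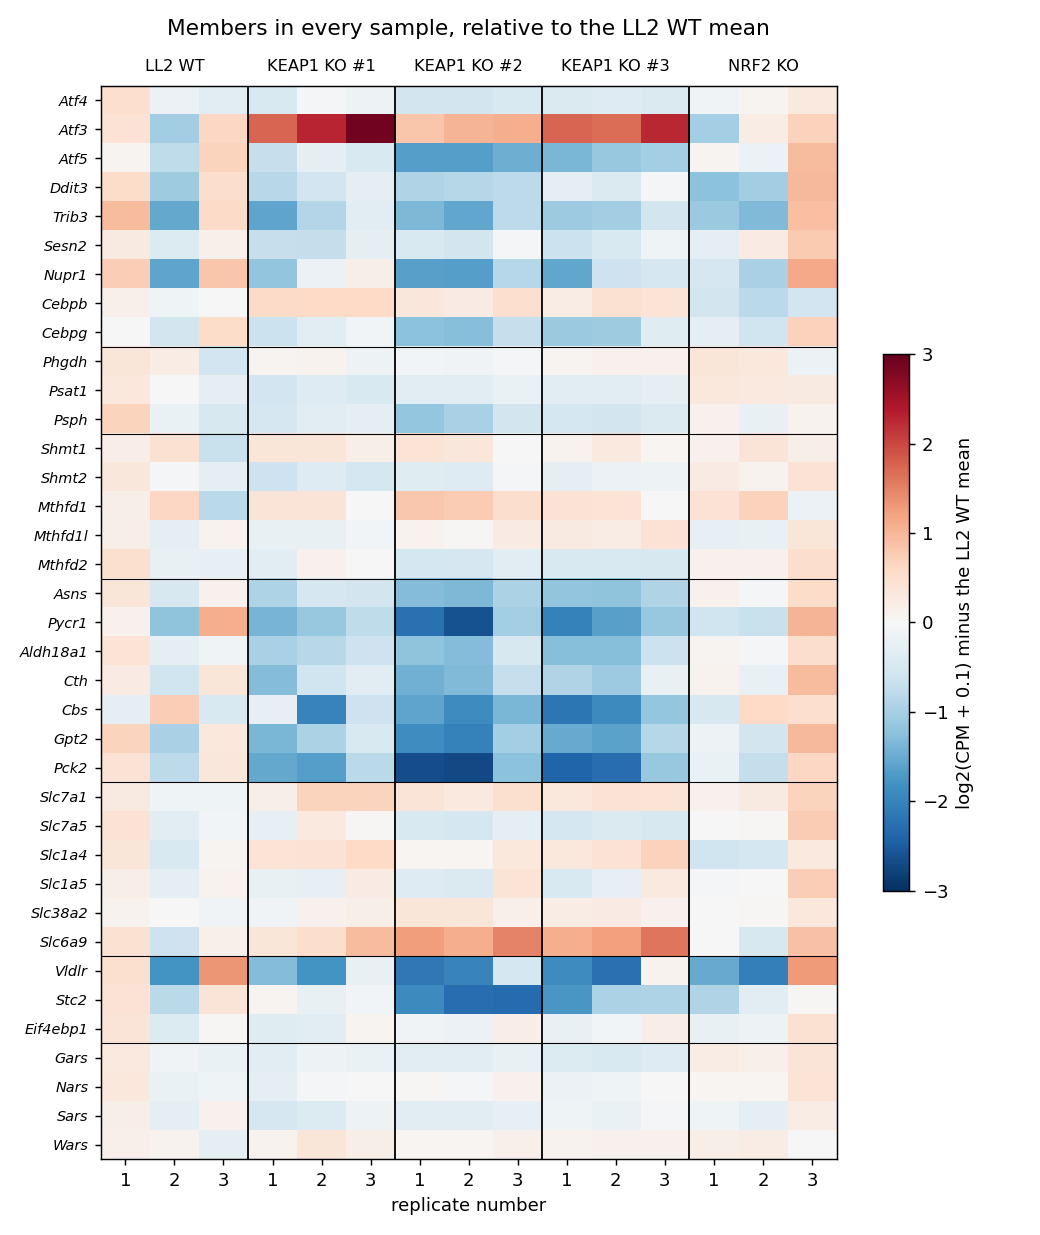
Each row is a member and each column a sample, grouped by line. The color gives log2(CPM + 0.1) minus the mean of the 3 LL2 WT samples, red for higher and blue for lower. The amino acid enzymes from *Asns* to *Pck2* are blue across *KEAP1* KO #2 and #3, *Atf3* is red in all 9 *KEAP1* KO samples, and replicate 3 of *NRF2* KO is redder than its other replicates.

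Promoter sequence is shown for the members the results turn on because ATF4 acts through a composite C/EBP-ATF response element (CARE). RefSeq promoters (GRCm38.p6, 250 bases before to 50 bases after the start site, 300 in all) were found for 31 of the 37 members, and *Cth*, *Wars*, *Slc1a5*, *Nars*, *Eif4ebp1* and *Slc7a5* had no entry. The letters TGATGNAA, searched on both strands, occurred in 9 of these 31 members, against 3.97% of all 32851 promoters. The antioxidant response element that NRF2 binds, searched as TGACNNNGC on both strands, occurred in 9 of the 31 and in 12.4% of all promoters. A member was counted if any of its promoters held the letters, and some, such as *Slc6a9*, have several. The counts of members and the shares of single promoters are thus in unlike units, which favors a match in the members. The *Asns* window held both, at −23 and −172 relative to the start, and the matches do not overlap. Of the 10 members that fell in a *KEAP1* KO clone, 9 have a promoter here and 3 of them (*Asns*, *Pck2*, *Pycr1*) hold the CARE letters. The stretches below carry the match in capitals and are written 5′ to 3′ on the strand of the gene and a match on the other strand appears as its reverse complement. The *Asns* stretch lies at chr6:7693214-7693243 (minus strand) within an annotated first exon, *Pycr1* at chr11:120643814-120643881 (minus), *Pck2* at chr14:55540133-55540200 (plus) and *Atf3* at chr1:191183406-191183473 (minus), the last 3 outside annotated exons of these genes. *Gars* lies at chr6:55037941-55038000 (plus), outside exons, and *Nupr1* at chr7:126625562-126625591 (minus) and *Vldlr* at chr19:27216809-27216838 (plus) within exons of other transcripts of the same genes. The first 4 belong to members called against LL2 WT, *Gars* is the tRNA synthetase with an adjusted p under 0.05, and *Nupr1* and *Vldlr* are among the members that differ most between replicates.
Asns: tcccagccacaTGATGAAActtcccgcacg
Pycr1: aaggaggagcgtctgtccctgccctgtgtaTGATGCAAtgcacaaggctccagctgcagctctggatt
Pck2: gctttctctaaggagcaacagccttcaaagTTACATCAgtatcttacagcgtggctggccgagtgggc
Atf3: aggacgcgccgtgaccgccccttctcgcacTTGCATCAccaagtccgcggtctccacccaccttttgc
Gars: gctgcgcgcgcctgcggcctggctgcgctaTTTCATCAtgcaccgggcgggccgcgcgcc
Nupr1: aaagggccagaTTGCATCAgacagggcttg
Vldlr: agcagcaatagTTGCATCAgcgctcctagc
A match is a description of the letters in these windows. The element stood in members that fell (*Asns*, *Pck2*, *Pycr1*), in a member that rose (*Atf3*) and in members that were not called (*Gars*, *Nupr1*, *Vldlr*).

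Among the 9 stress factors, *Atf3* rose in 2 clones, *Atf5* fell in 2, *Cebpg* fell in 1 and the others were not called. *Atf4* itself was measured at 533, 334 and 295 CPM in the LL2 WT replicates 1 to 3. It lay at 272, 364 and 338 CPM in *KEAP1* KO #1, at 257, 255 and 271 CPM in *KEAP1* KO #2, at 276, 286 and 277 CPM in *KEAP1* KO #3 and at 350, 395 and 459 CPM in *NRF2* KO. All samples of *KEAP1* KO #2 and #3 lay below every LL2 WT sample, and those of *KEAP1* KO #1 overlapped with LL2 WT. The Log2FC of clone #1 was −0.22 (adjusted *p* = 0.422), that of clone #2 −0.52 (adjusted *p* = 0.0429), that of clone #3 −0.42 (adjusted *p* = 0.0958) and that of *NRF2* KO 0.09 (adjusted *p* = 0.896), all under the size limit. Without LL2 WT replicate 1 the value of clone #2 was −0.27 (adjusted *p* = 0.162). ATF4 is regulated mainly through its translation, which RNA levels do not measure.

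*Atf3* (chr1:191170296-191218039, minus strand, GRCm38), a stress-induced repressor and ATF4 target, had 6.01, 2.101 and 6.81 CPM in LL2 WT. The 3 samples of *KEAP1* KO #1 had 15.1, 21.95 and 33.5 CPM, those of *KEAP1* KO #2 8.02, 9.07 and 9.47 CPM, those of *KEAP1* KO #3 15.04, 14.4 and 21.8 CPM and those of *NRF2* KO 2.12, 5.16 and 7.18 CPM. All 9 *KEAP1* KO samples lay above every LL2 WT sample, and *NRF2* KO overlapped with LL2 WT. The Log2FC with its standard error was 2.31 ± 0.47 (adjusted *p* = 0.00361) in *KEAP1* KO #1 and 1.90 ± 0.47 (adjusted *p* = 0.00798) in *KEAP1* KO #3. In *KEAP1* KO #2 it was 0.98 (95% interval −0.03 to 1.99, adjusted *p* = 0.128). Both calls held under every alternative tried.

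*Atf5* (chr7:44812256-44816658, minus), a relative of ATF4 that acts in the mitochondrial stress response, had 52.6, 29.1 and 78.6 CPM in LL2 WT. It stood at 30.6, 40.3 and 36.0 CPM in *KEAP1* KO #1, at 15.6, 15.6 and 17.9 CPM in *KEAP1* KO #2, at 18.9, 22.4 and 24.2 CPM in *KEAP1* KO #3 and at 52.7, 43.4 and 95.4 CPM in *NRF2* KO. *KEAP1* KO #2 and #3 lay wholly below LL2 WT, and *KEAP1* KO #1 overlapped with it. The Log2FC was −1.59 ± 0.32 (adjusted *p* = 0.00229) in *KEAP1* KO #2 and −1.18 ± 0.32 (adjusted *p* = 0.0134) in *KEAP1* KO #3. The second call was lost without LL2 WT replicate 3 (−0.85) or *KEAP1* KO #3 replicate 1.

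*Cebpg* (chr7:35046422-35056573, minus), a partner of ATF4 on CARE sites, had 36.9, 24.9 and 53.6 CPM in the LL2 WT replicates, while clone #2 had 15.5, 15.2 and 22.5 CPM. Clone #1 had 23.6, 28.7 and 34.4 CPM, clone #3 had 16.7, 17.4 and 28.3 CPM and *NRF2* KO samples had 30.01, 24.3 and 59.5 CPM. Of the KO lines, *KEAP1* KO #2 was the one whose samples all lay below LL2 WT, with a Log2FC of −1.07 ± 0.34 (adjusted *p* = 0.0313). This call was lost without LL2 WT replicate 1 or 3 or *KEAP1* KO #2 replicate 1 or 2, with values from −1.35 to −0.79 over all alternatives.

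*Cebpb*, a factor that works with ATF4 in stress and inflammation, averaged 48.4 ± 5.15 CPM in parental cells. Its means were 72.6 ± 0.341, 62.0 ± 5.32 and 62.1 ± 5.42 CPM for clones #1 to #3 and 30.9 ± 3.05 CPM for *NRF2* KO. The 9 *KEAP1* KO samples all lay above and all 3 *NRF2* KO samples below the range of LL2 WT. The Log2FC was 0.59 (adjusted *p* = 0.00175), 0.36 (adjusted *p* = 0.0212) and 0.36 (adjusted *p* = 0.0207) in the 3 clones and −0.64 (adjusted *p* = 0.0136) in *NRF2* KO, each under the size limit for a call. Of the 31-base stretches in its transcript, 19.6% also occur in a transcript of *Tmem189*, so reads between these genes could be split.

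The remaining stress factors had wide spreads. *Ddit3* (CHOP, a pro-apoptotic factor) and *Trib3* (a pseudokinase that restrains ATF4 and AKT) had 51.9, 16.7 and 50.8 CPM and 69.5, 12.4 and 53.8 CPM in the LL2 WT replicates. *Nupr1*, a stress-induced chromatin protein, had 23.6, 4.67 and 25.2 CPM there, so that LL2 WT replicate 2 lay far below the other replicates for all 3 genes. Their Log2FC in the *KEAP1* KO clones ranged from −1.39 for *Nupr1* to −0.25 for *Ddit3*, with no adjusted p under 0.05. *Sesn2*, a sensor that restrains mTORC1, had Log2FC of −0.56, −0.35 and −0.40 in the clones and 0.25 in *NRF2* KO, also without an adjusted p under 0.05.

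The 3 enzymes that make serine were not called in any line. *Phgdh*, which catalyzes the first step, averaged 328 ± 102 CPM in parental cells, and its means were 321 ± 31.4, 298 ± 3.19 and 342 ± 6.66 CPM for clones #1 to #3 and 359 ± 70.0 CPM for *NRF2* KO. Every one of these lines overlapped with LL2 WT, and the 95% interval of the Log2FC was −0.42 to 0.45 in *KEAP1* KO #1, −0.52 to 0.35 in *KEAP1* KO #2, −0.32 to 0.55 in *KEAP1* KO #3 and −0.27 to 0.60 in *NRF2* KO. In its transcripts 56.3% of the 31-base stretches also occur in *Gm13337*, so its level is uncertain, although the table lists *Gm13337* at under 0.1 CPM in each line. *Psat1*, the aminotransferase of the second step, averaged 464 ± 98.1 CPM in parental cells, then 331 ± 21.6, 375 ± 22.1, 367 ± 4.90 and 558 ± 9.5 CPM in the KO lines in the same order. Its Log2FC was −0.47 (adjusted *p* = 0.0135) in *KEAP1* KO #1, whose samples lay below all of LL2 WT, −0.29 (adjusted *p* = 0.0855) and −0.32 (adjusted *p* = 0.0612) in *KEAP1* KO #2 and #3, and 0.29 (adjusted *p* = 0.393) in *NRF2* KO. *Psph*, which releases serine, had 65.1, 35.2 and 29.4 CPM in the LL2 WT replicates, while clone #2 had 18.2, 20.8 and 27.9 CPM, with a Log2FC of −0.89 (adjusted *p* = 0.0131). Without LL2 WT replicate 3 or *KEAP1* KO #2 replicate 3 this difference passed the size limit, at −1.12 and −1.06, whereas without LL2 WT replicate 1, the highest at 65.1 CPM, it was −0.55.

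The 5 enzymes that move serine carbon into folate were not called against LL2 WT either. *Shmt2*, the mitochondrial enzyme that splits serine to glycine, averaged 244 ± 55.8 CPM in parental cells, while clone #1 averaged 168 ± 14.5 CPM, with a Log2FC of −0.51 (adjusted *p* = 0.0242) and no overlap, and without LL2 WT replicate 1 the value was −0.34. It was −0.27 and −0.21 in *KEAP1* KO #2 and #3 and 0.27 in *NRF2* KO. *Mthfd2*, the mitochondrial dehydrogenase that is low in most adult tissue and high in tumors, averaged 168 ± 50.6 CPM in parental cells, and its means were 158, 121 and 118 CPM for clones #1 to #3 and 198 CPM for *NRF2* KO. In *KEAP1* KO #2 and #3 its samples lay below every LL2 WT sample, with Log2FC of −0.44 (adjusted *p* = 0.0751) and −0.47 (adjusted *p* = 0.0605). The cytosolic *Shmt1* and *Mthfd1* leaned the other way, with Log2FC of 0.15 to 0.30 and 0.25 to 0.69 in the clones, and *Mthfd1l*, which frees formate in mitochondria, ranged from −0.18 to 0.31. None of these 3 had an adjusted p under 0.05 in any line.

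The enzymes for asparagine, proline, cysteine, alanine and phosphoenolpyruvate held most of the calls. All 7 of these members fell in *KEAP1* KO #2 and 5 of 7 in *KEAP1* KO #3, beside 7.75% and 7.34% of all genes. The median Log2FC over the group was −1.61 and −1.33. The group joins several pathways and was formed with earlier results of these data known, so it is not an independent set. In *KEAP1* KO #1 all 7 were below 0 with a median of −0.93, and none was called. In *NRF2* KO the median was 0.18, between −0.09 and 0.28. The summed mesenchymal markers split the samples along the same comparison (1548 to 2157 CPM in the clones, 3572 to 5801 CPM in LL2 WT), and their part in the lower enzyme levels was not tested.

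*Asns* (chr6:7675169-7693254, minus), which makes asparagine from aspartate and glutamine, had 418, 231 and 352 CPM in LL2 WT. Clone #1 read 170, 229 and 222 CPM, clone #2 read 132, 128 and 166 CPM, clone #3 read 143, 141 and 173 CPM and the *NRF2* KO read 354, 311 and 476 CPM. Each of the 9 *KEAP1* KO samples was below the lowest parental sample, the closest being *KEAP1* KO #1 replicate 2 at 229 CPM beside LL2 WT replicate 2 at 231 CPM. The Log2FC was −0.66 ± 0.22 (adjusted *p* = 0.0418), −1.20 ± 0.22 (adjusted *p* = 0.00105) and −1.10 ± 0.22 (adjusted *p* = 0.00183) in the 3 clones and 0.21 (adjusted *p* = 0.785) in *NRF2* KO. In *KEAP1* KO #3 the size limit was missed without LL2 WT replicate 1, at −0.91, and in *KEAP1* KO #2 the call held under every alternative.

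*Pck2* (chr14:55540266-55551242, plus), the mitochondrial enzyme that makes phosphoenolpyruvate from oxaloacetate, fell in *KEAP1* KO #2 and #3. LL2 WT had 107, 46.6 and 102 CPM. *KEAP1* KO #1 had 27.5, 25.3 and 45.8 CPM, *KEAP1* KO #2 had 12.6, 12.15 and 34.0 CPM, *KEAP1* KO #3 had 15.1, 16.2 and 36.4 CPM and *NRF2* KO had 69.9, 48.5 and 123 CPM. Every *KEAP1* KO sample was lower than every LL2 WT sample, although replicate 3 of each clone stood above its other replicates. The Log2FC was −2.20 ± 0.49 (adjusted *p* = 0.00458) in *KEAP1* KO #2 and −1.94 ± 0.49 (adjusted *p* = 0.00945) in *KEAP1* KO #3, and both calls held under every alternative. For clone #1 it was −1.33 ± 0.49 (adjusted *p* = 0.0677), which passed the threshold after rescaling by the median ratio (−1.44), after quantile normalization (−1.47) and with LL2 WT replicate 2 omitted (−1.72). It was also called with the replicate block (−1.33, adjusted *p* = 0.001), with replicate 3 as a term and with replicates 1 and 2 alone.

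The proline enzymes *Aldh18a1* (chr19:40550257-40588463, minus) and *Pycr1* (chr11:120635712-120643769, minus) were lower in the *KEAP1* KO clones to differing degrees of certainty. The first makes the glutamate semialdehyde precursor, and the second catalyzes the last step in mitochondria. *Aldh18a1* had 163, 99.1 and 113 CPM in the LL2 WT replicates. Clone #1 gave 61.9, 69.0 and 79.3, clone #2 gave 52.6, 49.2 and 87.0, clone #3 gave 50.8, 50.3 and 78.0 and the *NRF2* KO samples gave 129, 117 and 178 CPM. Again the 9 *KEAP1* KO samples were all below LL2 WT, making it 1 of 3 members of which this is true (*Asns*, *Aldh18a1*, *Pck2*), as it is of 7.69% of all genes. On the upper side it is true of 2 members (*Atf3*, *Cebpb*) and of 12.9% of all genes. The Log2FC of *Aldh18a1* was −0.81 (adjusted *p* = 0.0358), −1.01 (adjusted *p* = 0.00931) and −1.07 (adjusted *p* = 0.00668) in the clones, and without LL2 WT replicate 1 or replicate 1 or 2 of the clone the last 2 dropped under the size limit, to as little as −0.80 and −0.86. *Pycr1* had 14.3, 5.65 and 28.02 CPM in parental cells. Values for clones #1, #2 and #3 were 4.93, 5.94 and 7.76, then 2.70, 2.08 and 6.45, then 3.16, 4.20 and 5.97 CPM, and *NRF2* KO samples read 8.65, 8.28 and 26.7 CPM. Each clone overlapped with LL2 WT for *Pycr1* through LL2 WT replicate 2, and the call in *KEAP1* KO #2, −1.95 ± 0.58 (adjusted *p* = 0.0221), was lost without LL2 WT replicate 1 or 3 or *KEAP1* KO #2 replicate 1 or 2. In *KEAP1* KO #3 the Log2FC was −1.59 (adjusted *p* = 0.0541), and without LL2 WT replicate 2 it was called at −2.19. With the replicate block *Pycr1* was called in clones #1 and #3 too, at the same −1.09 and −1.59.

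*Gpt2* (chr8:85492576-85527560, plus), the mitochondrial alanine aminotransferase, had 72.6, 23.1 and 57.2 CPM in the parental replicates. The clones had 17.7, 23.5 and 33.4 CPM (#1), 12.6, 11.2 and 22.5 CPM (#2) and 15.9, 15.1 and 25.2 CPM (#3), and the *NRF2* KO had 41.1, 31.1 and 89.8 CPM. The Log2FC was −1.63 ± 0.46 (adjusted *p* = 0.0168) in *KEAP1* KO #2, without overlap, and −1.33 ± 0.46 (adjusted *p* = 0.0442) in *KEAP1* KO #3, where replicate 3 reached above LL2 WT replicate 2. Each of these calls was lost when LL2 WT replicate 1 or 3, or replicate 1 or 2 of the clone, was omitted.

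The transsulfuration enzymes, which take homocysteine to cysteine and so connect the methyl cycle with glutathione, are *Cbs* and *Cth*. *Cth* (chr3:157894248-157925077, minus) had 17.0, 9.33 and 18.3 CPM in the LL2 WT replicates. Clone #1 gave 5.73, 9.43 and 11.5, clone #2 gave 5.18, 5.67 and 8.81, clone #3 gave 7.55, 6.68 and 12.17 and the *NRF2* KO samples gave 15.4, 12.21 and 27.9 CPM. It fell in *KEAP1* KO #2 (Log2FC −1.15 ± 0.37, adjusted *p* = 0.032), the clone without overlap, and the call was lost without LL2 WT replicate 1 or 3 or *KEAP1* KO #2 replicate 1 or 2. *Cbs* (chr17:31608894-31637238, minus) had 1.12, 2.37 and 0.983 CPM in parental cells. Values for clones #1, #2 and #3 were 1.15, 0.269 and 0.858, then 0.392, 0.304 and 0.473, then 0.231, 0.292 and 0.567 CPM, and *NRF2* KO samples read 0.960, 2.15 and 2.01 CPM. Its Log2FC was −1.61 ± 0.49 (adjusted *p* = 0.024) in *KEAP1* KO #2 and −1.74 ± 0.49 (adjusted *p* = 0.0163) in *KEAP1* KO #3, both without overlap. At these levels the added 0.1 CPM understates a fold change, with 1 CPM added the values were −0.80 and −0.83 and no longer called, and both calls were also lost without LL2 WT replicate 2 and without replicate 1 or 2 of the clone.

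**Figure D2:**
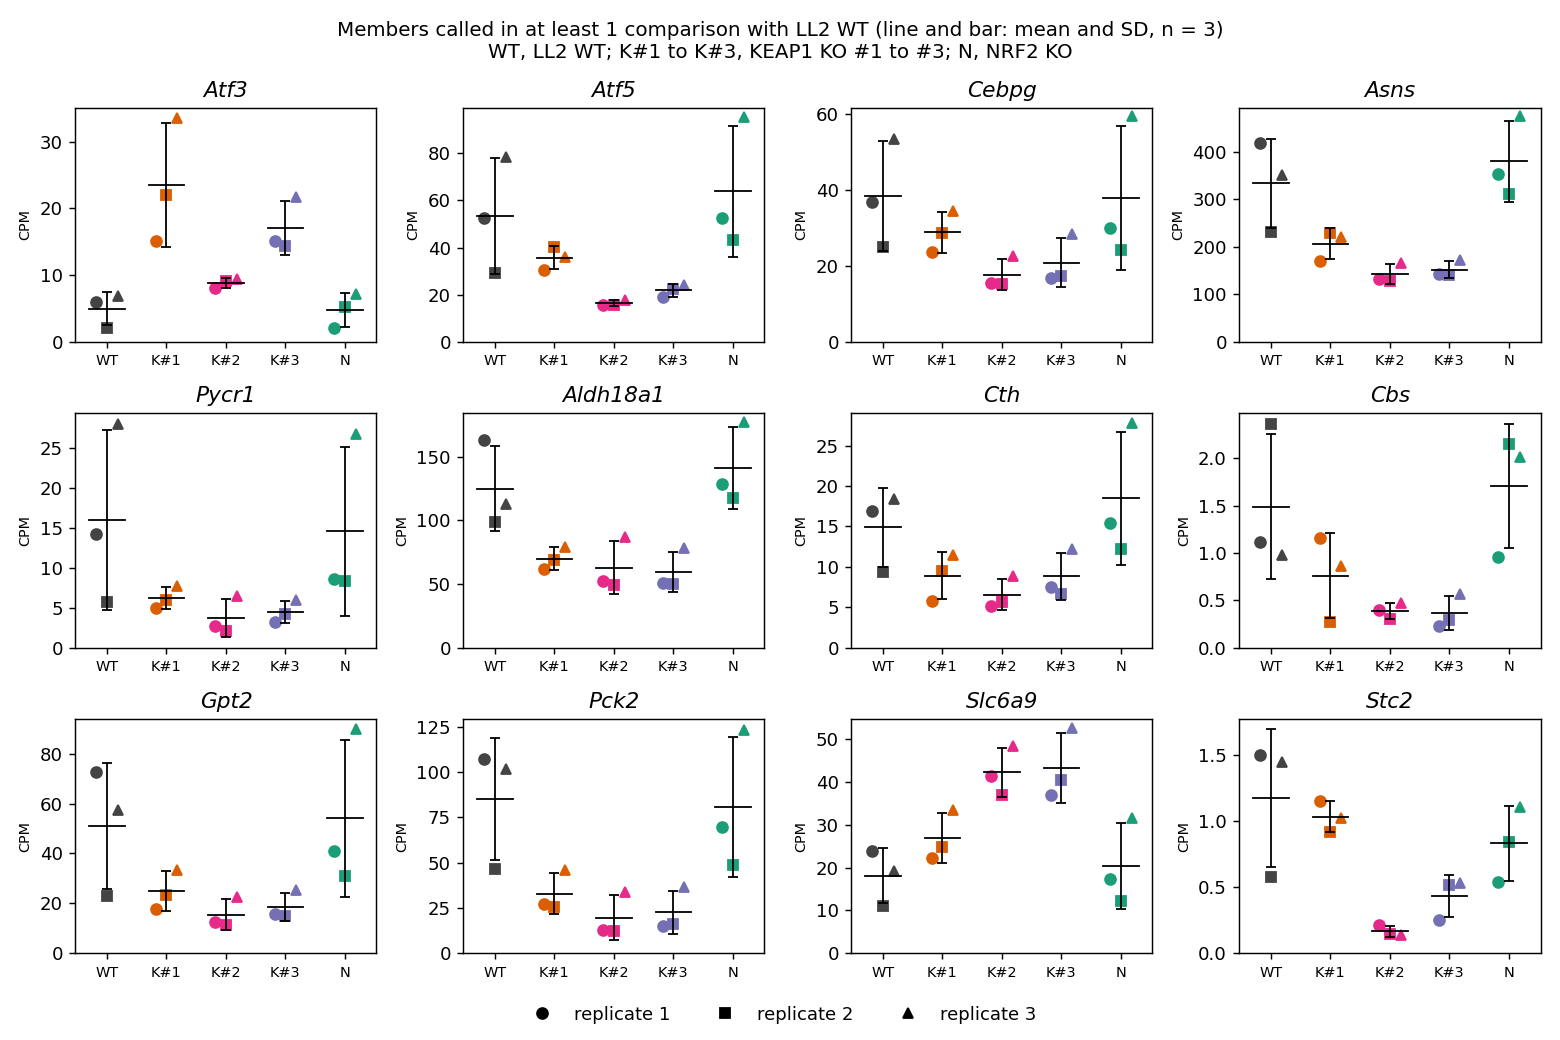
CPM of the 12 members called in at least 1 comparison with LL2 WT, 1 panel per gene, each axis starting at 0. Points are the replicates (circle 1, square 2, triangle 3), and the line and bar give the mean and SD of the 3. LL2 WT replicate 2 lies lowest of its line in 11 of the 12 panels, *Cbs* being the exception, and replicate 3 is the highest *NRF2* KO sample in 11, again apart from *Cbs*.

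Of the 6 amino acid transporters, *Slc6a9* rose in 2 clones and the others were not called. *Slc6a9* (chr4:117834506-117875198, plus) encodes the glycine transporter GLYT1. It had 23.9, 11.1 and 19.3 CPM in the parental replicates. The clones had 22.3, 24.7 and 33.4 CPM (#1), 41.5, 37.0 and 48.3 CPM (#2) and 36.8, 40.5 and 52.5 CPM (#3), and the *NRF2* KO had 17.3, 12.31 and 31.6 CPM. *KEAP1* KO #2 and #3 lay wholly above LL2 WT, with Log2FC of 1.28 ± 0.33 (adjusted *p* = 0.00957) and 1.31 ± 0.33 (adjusted *p* = 0.00848), and *KEAP1* KO #1 overlapped at 0.61 (adjusted *p* = 0.195). Without LL2 WT replicate 2 the first 2 values were 0.97 and 0.99, just under the size limit. Of its 31-base stretches 28.4% also occur in the overlapping gene *Ccdc24*, which averaged 0.474 to 1.18 CPM over the lines and was not called in any. *Slc7a1*, the carrier for arginine and lysine, had a Log2FC of 0.50 (adjusted *p* = 0.0438) in *KEAP1* KO #1 and 0.39 in *KEAP1* KO #2 and #3 (adjusted *p* = 0.0903 and adjusted *p* = 0.0914). *Slc7a5*, the carrier for large neutral amino acids, had −0.42 and −0.48 in *KEAP1* KO #2 and #3 and 0.02 in *KEAP1* KO #1. For the serine and neutral amino acid carriers *Slc1a4*, *Slc1a5* and *Slc38a2* the Log2FC lay between −0.14 and 0.49 in the clones, and no adjusted p was under 0.05.

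Among the other targets, *Stc2* (chr11:31357307-31370074, minus), which encodes the secreted glycoprotein stanniocalcin 2, fell in *KEAP1* KO #2 and #3. LL2 WT had 1.499, 0.575 and 1.44 CPM. *KEAP1* KO #1 had 1.15, 0.919 and 1.02 CPM, *KEAP1* KO #2 had 0.215, 0.145 and 0.139 CPM, *KEAP1* KO #3 had 0.251, 0.515 and 0.528 CPM and *NRF2* KO had 0.538, 0.841 and 1.11 CPM. *KEAP1* KO #1 stayed within the range of LL2 WT, and the other 2 clones lay below it. The Log2FC was −2.16 ± 0.38 (adjusted *p* = 0.000927) in *KEAP1* KO #2 and −1.20 ± 0.38 (adjusted *p* = 0.0289) in *KEAP1* KO #3. With 1 CPM added these were −0.87 and −0.58 and not called, and the second call was lost when replicate 1 or 3 of LL2 WT, or replicate 1 of clone #3, was omitted. *Vldlr*, a lipoprotein receptor under ATF4 control, had 14.6, 2.95 and 26.4 CPM in LL2 WT, and its Log2FC of −1.10, −1.55, −1.34 and −0.76 in the KO lines had 95% intervals that all crossed 0. *Eif4ebp1*, a repressor of cap-dependent translation, stayed between −0.20 and 0.02.

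None of the 4 tRNA synthetases was called. *Gars*, for glycine, averaged 355 ± 68.3 CPM in parental cells, while clone #3 averaged 264 ± 6.49 CPM, with a Log2FC of −0.41 (adjusted *p* = 0.0164) and no overlap. Without LL2 WT replicate 1 the value was −0.26. It was −0.23 and −0.30 in *KEAP1* KO #1 and #2 and 0.25 in *NRF2* KO. *Nars*, *Sars* and *Wars*, for asparagine, serine and tryptophan, ranged from −0.36 to 0.22 in the KO lines with no adjusted p under 0.05.

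**Figure D3:**
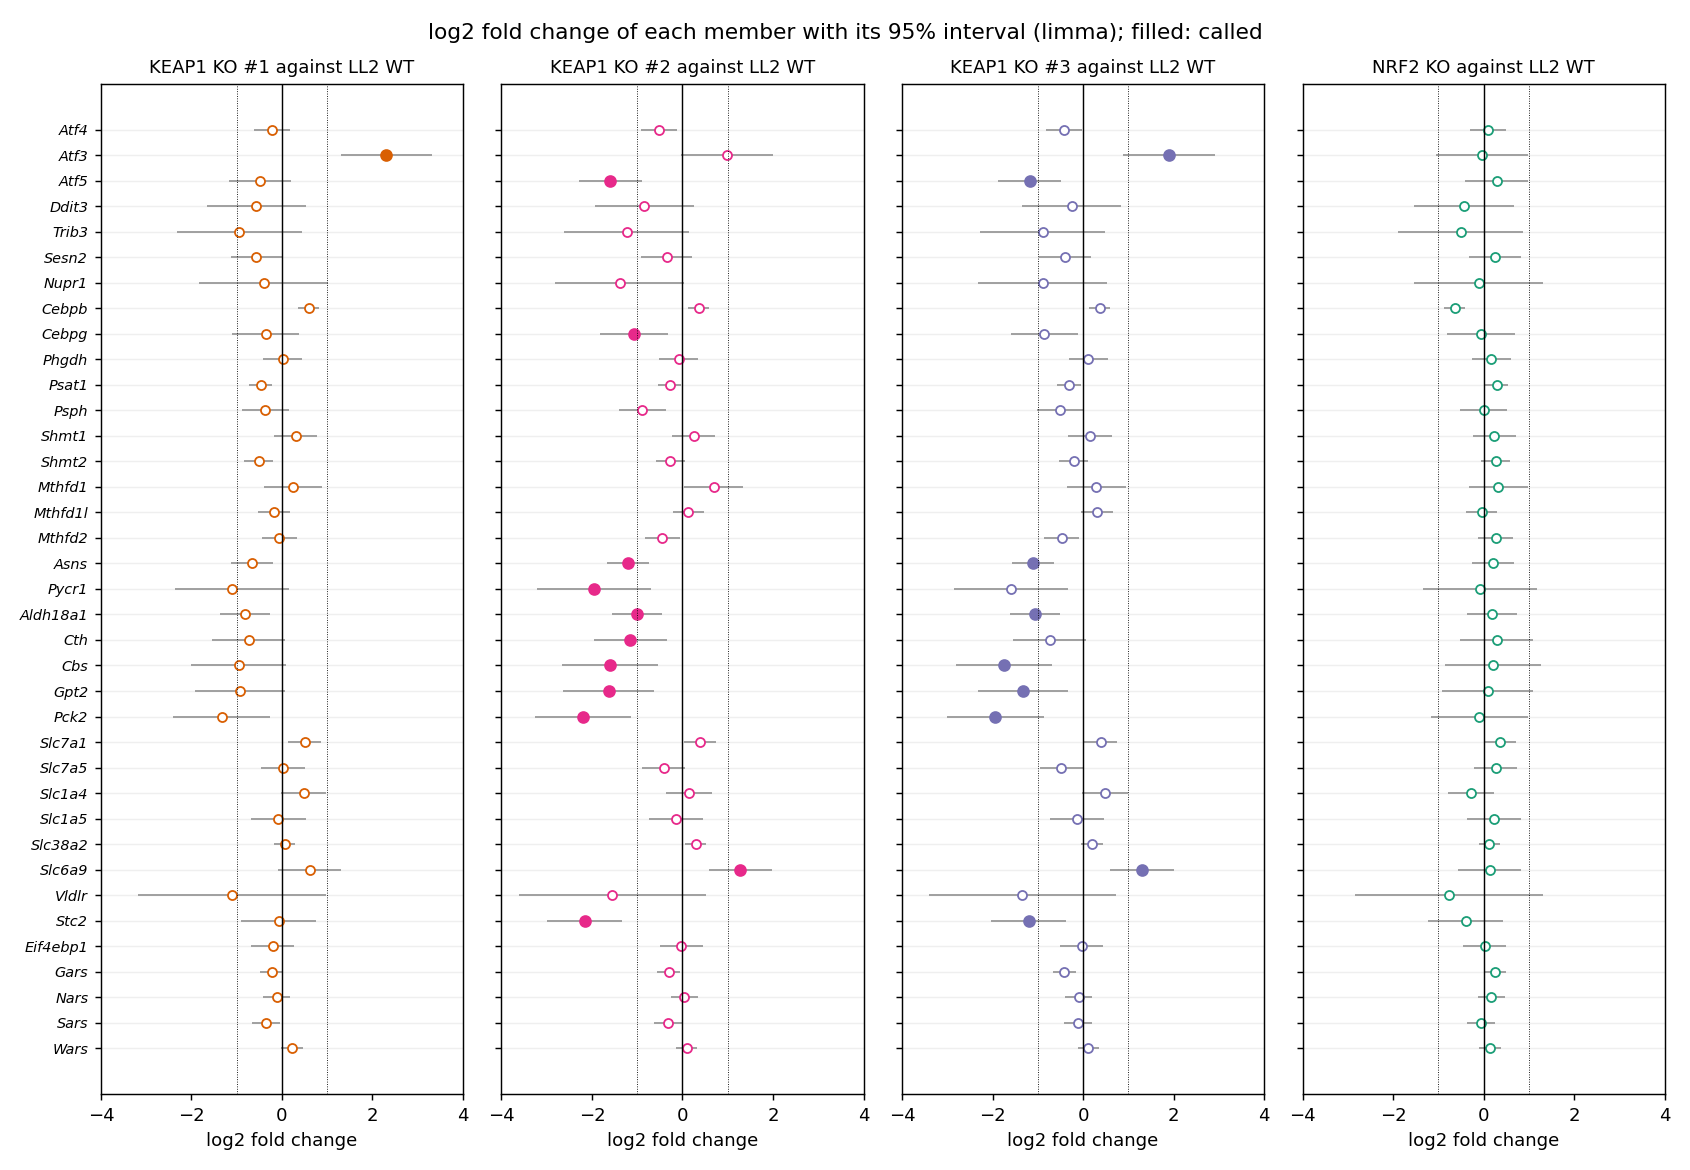
Log2FC of each member against LL2 WT with its 95% interval from limma, 1 panel per KO line. Filled points are called, dotted lines mark −1 and 1. Filled points lie on the negative side for the amino acid enzymes in *KEAP1* KO #2 and #3, and the *NRF2* KO panel has none.

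*NRF2* KO and the *KEAP1* KO clones carry opposite changes of NRF2 and were set against each other, with the mean of the 3 clones on one side. The p-values of this comparison take no account of the spread between the 3 clones, and the other side is a single clone. The members lay lower in the clones for 28 of 37, with a median Log2FC of −0.55 beside −0.0029 for all genes. Of the members 2 were called higher and 8 lower, where 5.19% and 4.75% of all genes were, or 9.94% together. The 7 enzymes from *Asns* to *Pck2* were all called lower, from −1.15 for *Aldh18a1* to −1.73 ± 0.40 (adjusted *p* = 0.00645) for *Pck2*, and so was *Atf5* at −1.37 (adjusted *p* = 0.00173). The *Pycr1* call was lost under 9 of 22 alternatives: without the filter, without replicate 1 or 2 of any clone and without *NRF2* KO replicate 1 or 3, with values from −1.76 to −0.92 over all of them. The *Cbs* call was lost with 1 CPM added, at −0.84. *Atf3* was called higher at 1.77 ± 0.38 (adjusted *p* = 0.00399) and *Cebpb* at 1.08 ± 0.09 (adjusted *p* = 1.2e-06).

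Several genes of serine and one-carbon metabolism that were not called against LL2 WT had an adjusted p under 0.05 here, all below the size limit. *Psat1* was lower at −0.64 (adjusted *p* = 0.000312), *Psph* at −0.59 (adjusted *p* = 0.0411), *Shmt2* at −0.60 (adjusted *p* = 0.00243), *Mthfd2* at −0.59 (adjusted *p* = 0.00928) and *Gars* at −0.56 (adjusted *p* = 0.000675). For *Psat1* the 3 *NRF2* KO samples had 568, 558 and 549 CPM and the 9 *KEAP1* KO samples 308 to 400 CPM. *Atf4* was lower at −0.48 (adjusted *p* = 0.0304), *Sesn2* at −0.69 (adjusted *p* = 0.0308) and *Slc7a5* at −0.55 (adjusted *p* = 0.0381). Without *NRF2* KO replicate 3 these were −0.42 (adjusted *p* = 0.213) for *Sesn2* and −0.30 (adjusted *p* = 0.263) for *Slc7a5*. On the other side, *Slc1a4* at 0.64 (adjusted *p* = 0.024) and *Slc6a9* at 0.93 (adjusted *p* = 0.0196) were higher. The adjusted p from limma also passed 0.05 under an alternative for other genes here. It reached 0.158 for *Atf4*, 0.155 for *Psph*, 0.154 for *Slc1a4*, 0.126 for *Slc6a9* and 0.0688 for *Mthfd2*. For *Psat1*, *Shmt2* and *Gars* it stayed under 0.05. In all, 20 members had an adjusted p under 0.05 of any size, 4 higher and 16 lower, beside 25.9% of all genes. *Phgdh* and *Mthfd1* had −0.15 and 0.09, with adjusted *p* = 0.55 and adjusted *p* = 0.838. Without *NRF2* KO replicate 3 the count of members called fell from 10 to 6, since *Pycr1*, *Aldh18a1*, *Cth*, *Gpt2* and *Pck2* were no longer called and *Slc6a9* was.

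Differences between the clones were tested directly. In *KEAP1* KO #1 against *KEAP1* KO #2, *Atf5* was higher by 1.11 ± 0.32 (adjusted *p* = 0.0403) and *Stc2* by 2.09 ± 0.38 (adjusted *p* = 0.00366), and 4.58% of all genes were called. *KEAP1* KO #1 against *KEAP1* KO #3 (4.63% of all genes called) and *KEAP1* KO #3 against *KEAP1* KO #2 (0.485%) called no member by limma, with 5 members and 1 member at an unadjusted p under 0.05, beside 25.8% and 8.22% of all genes. The 7 enzymes from *Asns* to *Pck2* were higher in *KEAP1* KO #1 than in *KEAP1* KO #2 by 0.20 to 0.87, and none of these differences had an adjusted p under 0.05. Thus the calls in *KEAP1* KO #2 and #3 that are missing in *KEAP1* KO #1 are not shown to differ between the clones for these enzymes. The calls for *Atf5* were lost when any replicate of either clone was left out.

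Replicate 3 carried higher levels of many members. With the line and replicate 3 as terms in limma, a contrast added after the data had been seen, 5 members were called higher in replicate 3 and 0 lower, beside 4.03% and 0.273% of all genes (4.31% together). They were *Vldlr* at 2.01 ± 0.32 (adjusted *p* = 0.000483), *Pycr1* at 1.18 (adjusted *p* = 0.00107), *Nupr1* at 1.07 (adjusted *p* = 0.0186), *Trib3* at 1.02 (adjusted *p* = 0.0237) and *Pck2* at 1.01 (adjusted *p* = 0.00077). *Vldlr* had 26.4, 9.03, 7.28, 11.2 and 25.5 CPM in replicate 3 of the 5 lines in order and at most 14.6 CPM in the other 10 samples. *Pck2*, *Pycr1*, *Nupr1* and *Vldlr* hold the CARE letters in the stretches printed above. *Trib3* holds them at 14 bases after its RefSeq start, and the bases at that start were not found in a GENCODE transcript of the gene. The other 4 of the 9 members with these letters (*Asns*, *Atf3*, *Gars*, *Slc1a4*) were not called in this contrast. *Nupr1* and *Vldlr* had been picked for printing by their spread between replicates. The share of these letters among all genes called higher in replicate 3 was not taken, and a link between the letters and replicate 3 was not tested. At an adjusted p under 0.05 of any size 19 members were higher and 3 lower (*Phgdh*, *Shmt1* and *Mthfd1*, from −0.60 to −0.32), where 30.6% and 15.1% of all genes were.

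The sizes in the lines were not tested against each other. Replicate 3 minus the mean of replicates 1 and 2 was above 0 for 32 of 37 members in *NRF2* KO, and for 60.3% of all genes. The median was 0.60 for the members beside 0.12 for all genes. In *KEAP1* KO #1, #2 and #3 the difference was above 0 for 31, 33 and 32 members (64.0%, 63.0% and 65.2% of all genes). The medians there were 0.19, 0.23 and 0.29 beside 0.11, 0.13 and 0.16. In LL2 WT the difference was above 0 for 20 members (51.3% of all genes), with a median of 0.12 beside 0.02. Replicate 3 had the highest value in each of the 4 KO lines for 19 of 37 members, as for 27.7% of all genes, and in all 5 lines for 6 (*Atf3*, *Nupr1*, *Cebpg*, *Pycr1*, *Cth*, *Vldlr*), as for 20.5%. LL2 WT had another order, with replicate 1 the highest for 27 of 37 members (24.9% of all genes) and replicate 2 the lowest for 25 (41.8%). The labels and methods do not say what the replicate numbers stand for, and what these differences follow was not tested. In bulk RNA a change in a share of the cells and a change of RNA level in all cells cannot be told apart.

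**Figure D4:**
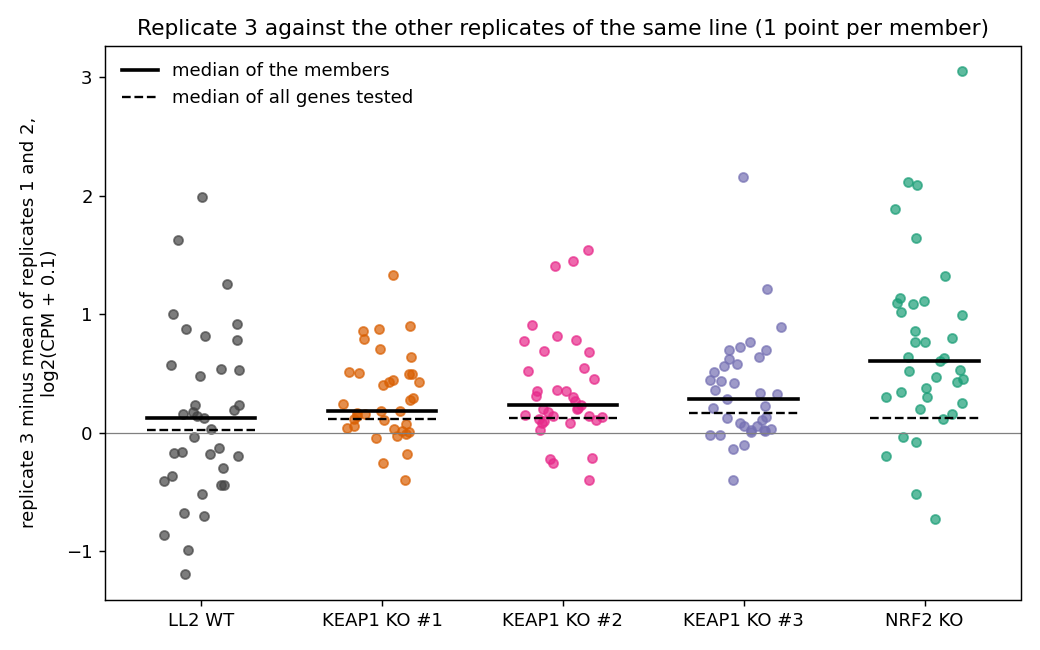
Replicate 3 minus the mean of replicates 1 and 2 of the same line, in log2(CPM + 0.1), for each of the 37 members. Solid bars give the median of the members (0.12, 0.19, 0.23, 0.29 and 0.60 from left to right) and dashed bars the median of all genes tested, and *NRF2* KO has the highest median of members.

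Related gene lists are given by their counts. Of 16 other ATF4 targets, all tested, 1 was called higher in *KEAP1* KO #1, 2 higher and 2 lower in each of *KEAP1* KO #2 and #3 and 0 in *NRF2* KO. Of all genes 4.55%, 5.94% and 6.09% were called higher in clones #1 to #3 and 3.99%, 7.75% and 7.34% lower. *Slc7a11*, the cystine carrier that NRF2 raises too, averaged 4.26 CPM in parental cells, then 19.5, 52.5 and 99.6 CPM over clones #1 to #3 (Log2FC 2.29, 3.75 and 4.67) and 2.39 CPM for *NRF2* KO. *Gdf15*, a stress hormone, rose from 0.177 to 1.44 and 1.66 CPM in *KEAP1* KO #2 and #3. In clone #1 it averaged 0.874 CPM and was not called, and clone #2 spanned 0.695 to 2.74 CPM. *Fgf21*, a metabolic hormone, fell from 1.86 to 0.0699 and 0.197 CPM and *Niban1* from 56.2 to 11.3 and 13.3 CPM in clones #2 and #3. *Gdf15* in LL2 WT and *Fgf21* in these clones lay near the added 0.1 CPM, so the sizes of their changes are uncertain. In the replicate 3 contrast 5 of the 16 were called higher and 0 lower, beside 4.03% and 0.273% of all genes.

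Of the 20 tested genes of the folate and methyl cycle (22 listed), *Slc19a1*, the reduced folate carrier, rose in *KEAP1* KO #2 and #3 (Log2FC 1.18 with adjusted *p* = 0.00163, and 1.295 with adjusted *p* = 0.000822) and the others were not called. Parental cells averaged 19.9 ± 4.65 CPM, these clones 44.8 ± 7.20 and 48.8 ± 10.7 CPM, clone #1 35.4 ± 9.42 CPM and the *NRF2* KO 23.4 ± 3.03 CPM. At an adjusted p under 0.05 of any size 5, 6 and 6 of these genes were higher in the 3 clones, beside 15.9%, 17.3% and 16.6% of all genes, and 0, 0 and 1 lower. Of 16 other cytosolic and 17 mitochondrial tRNA synthetases and 12 genes for eIF2 kinases, eIF2 and its phosphatase subunits, limma called none in any line. At an adjusted p under 0.05 of any size, 1 of the cytosolic synthetases was higher and 2 lower in *KEAP1* KO #1, 3 and 2 in *KEAP1* KO #2 and 2 and 2 in *KEAP1* KO #3. Of the mitochondrial ones 3, 1 and 1 were higher in the 3 clones and 0 lower. Of the eIF2 genes 1 was higher and 2 lower in *KEAP1* KO #2 and 1 lower in *KEAP1* KO #3. Of 12 targets of XBP1 and ATF6 in the unfolded protein response, *Xbp1* itself fell in *KEAP1* KO #2 and #3, both at −1.19 (adjusted *p* = 0.0021 and adjusted *p* = 0.002), from 93.1 ± 20.7 CPM to 40.4 ± 5.80 and 40.8 ± 9.73 CPM. At an adjusted p under 0.05 of any size 3, 3 and 4 of these 12 genes were lower in clones #1, #2 and #3, beside 7.25%, 14.6% and 14.8% of all genes, and 0 were higher.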

How the data were processed

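RNA of 15 LL2 samples was sequenced. The authors pseudo-aligned reads with Kallisto and deposited 1 table of CPM per gene symbol, which sum to the same total in each sample. The study's methods name GRCm38.p6 transcripts, whereas the submitters' processing notes name GRCm39 and bcl2fastq version 1.9.0, and the table has no coordinates. Positions here are GENCODE vM21 on GRCm38 and promoters RefSeq on GRCm38.p6. Lines follow the labels, and 0 pairs of samples were identical.

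The 1 entry with a blank symbol, 0.0214% to 0.0491% of the CPM, was not used. The filter kept the 14652 of 35880 genes whose CPM summed to 3 or more over the samples. Log2(CPM + 0.1) values of all 5 lines were fitted with limma version 3.58.1 (R version 4.3.3) with line as the term, leaving 10 residual degrees of freedom. P-values are two-sided and were adjusted over all genes by Benjamini and Hochberg, with thresholds of 0.05 and, for the absolute log2 fold change, 1. The scripts were tested on simulated data. CPM are not scaled by length, so levels are not compared between genes, and fold changes of low genes are understated.

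All 37 members are named, with every sample's value for those called against LL2 WT. Of each other list, up to 4 genes are named, those called in the most lines. The members and lists were chosen with earlier results of these data known. The alternatives were pseudocounts of 0.5 and 1 CPM, no filter or a mean of at least 1 CPM, CPM rescaled by the median ratio, quantile normalization, a model with the lines compared alone, the replicate number as a block, replicate 3 as a term and leaving out each replicate. Replicates 1 and 2 alone and the contrast of replicate 3 were added after the data were seen.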

Additional observations from a re-analysis of the deposited data

Results flagged for a closer look

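*Atf5* and *Stc2* differed between *KEAP1* KO #1 and *KEAP1* KO #2 by a test of the difference itself (limma, adjusted over all genes). *Atf5* was higher in *KEAP1* KO #1 by 1.11 on the log2 scale (adjusted *p* = 0.0403), with 30.6 to 40.3 CPM against 15.6 to 17.9 CPM and no overlap in 3 against 3 samples. *Stc2* was higher there by 2.09 (adjusted *p* = 0.00366), with 0.919 to 1.15 CPM against 0.139 to 0.215 CPM, also without overlap. No other member was called between these clones, and 4.58% of all genes were.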

How the results depend on the processing

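Of 68 member results, 36 kept their side of the threshold under all alternatives, and so did 9 of 33 calls. The members called numbered 1 in *KEAP1* KO #1 against LL2 WT and became 2 with CPM rescaled by the median ratio, 2 with quantile normalization, 3 with replicate 3 as a term and 2 with replicates 1 and 2 alone, an alternative chosen after seeing the data. In *KEAP1* KO #2 they went from 11 to 7 with the compared lines alone in the model. Leaving out 1 replicate gave 1 to 5 calls for clone #1, 5 to 12 for clone #2, 4 to 11 for clone #3, 0 to 0 for *NRF2* KO and 6 to 10 for the mean of the clones against *NRF2* KO. In *KEAP1* KO #1 against #2 the 2 calls became 1 with 1 CPM added, 1 without the filter, 1 with a mean of at least 1 CPM, 1 with quantile normalization and 1 to 1 with a replicate left out. In *KEAP1* KO #1 against #3 the count went from 0 to 1 with replicate 3 as a term. The Log2FC of *Stc2* in *KEAP1* KO #1 (−0.07, not called) ranged from −0.48 to 0.14 with 1 replicate left out, turning to 0.14, 0.12 and 0.0012 when parental replicate 1, parental replicate 3 or clone #1 replicate 2 was omitted, and was 0.12 with replicates 1 and 2 alone. For clone #1, rescaling moved the all-gene median from 0.11 to 0.01, and quantile normalization to 0.03. Shares of all genes called were not taken for these alternatives, so the changes in count cannot be read as particular to the members. The causes were not tested.

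With the replicate number as a block, 3, 13 and 11 members were called in clones #1, #2 and #3 against LL2 WT, 0 for *NRF2* KO, 10 for the mean of the clones, and 3, 1 and 0 for *KEAP1* KO #1 against #2, #1 against #3 and #3 against #2. The share of all genes called with the block was not taken, so these counts cannot be read as particular to the members. Pairing is not stated by the labels. The main fit used no block because the study's methods describe none. In 0 of 10 pairs of lines was every correlation of same-numbered samples over 0.1. The median r was 0.16 over 30 sample pairs and −0.12 over 60 with different numbers, across 14652 genes, which are not independent. Values were centered on the mean of their line, so an r above 0 for same numbers pulls r for different numbers below 0. The second median is thus not separate evidence. The 10 pairs of replicate 3 had r of 0.25 to 0.45, those of replicate 2 had 0.08 to 0.35 and those of replicate 1 had 0.0006 to 0.15. Every same-numbered pair thus had r above 0, and whether the numbers pair samples was not settled. Without read totals, counting error in the low members *Stc2* and *Cbs* is unknown.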
